A study of Mus musculus with 6 samples.

Results

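The growth factor, Wnt, TGF-β and MAPK genes described here are the 48 protein-coding genes, of 3201 genes in the deposited table, whose symbols name FGF, EGF, PDGF, VEGF, IGF, TGF-β, BMP, GDF, inhibin, SMAD, Wnt, Frizzled, Dkk, R-spondin, Notch, Jagged, ephrin and Eph family members, MAP kinases and their upstream kinases, dual-specificity phosphatases, Sprouty and Spred proteins. They were chosen by symbol alone. mRNA of whole liver was sequenced in 3 mice of the Fgf18 f/f group and 3 of the Fgf18 △HSC group, all subjected to hepatic ischemia-reperfusion (I/R), with 1 h of ischemia and 6 h of reperfusion. The mice were male according to the study. Fgf18 △HSC mice carry the floxed Fgf18 allele together with Cre recombinase driven by the GFAP promoter, which was used to delete Fgf18, a secreted fibroblast growth factor, in hepatic stellate cells (HSCs). Fgf18 f/f mice carry the floxed allele without the deletion and served as controls. The label of the control livers names the injury, IR, in place of a genotype, so the genotype given here follows the study's description. The age of the mice is not given in the sources used here, there was no uninjured group in these data, and GFAP is also expressed by glial cells outside the liver. The level of Fgf18 itself was not analysed here, so the genotype was not checked against the deleted gene. The comparison addresses how the liver transcriptome after I/R differed when Fgf18 had been deleted in HSCs.

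Growth factors of these families are secreted proteins that bind receptors on the same or neighboring cells. FGF, EGF, PDGF, VEGF and IGF ligands act through receptor tyrosine kinases and the RAS-ERK branch of the MAP kinase cascades, which run from MAP3 kinases through MAP2 kinases to MAP kinases and are switched off by dual-specificity phosphatases. TGF-β, activin and BMP ligands signal through serine/threonine kinase receptors and SMAD proteins. Wnt ligands stabilize β-catenin, and R-spondins strengthen that signal. In the liver, stellate, endothelial and Kupffer cells are known sources of many of these ligands, Wnt2, Wnt9b and Rspo3 from endothelial and stellate cells around the central vein maintain pericentral gene expression in hepatocytes, and BMP signaling controls hepcidin.

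Values are transcript abundances corrected for gene length and library total (TPM) and are listed below for livers 1, 2 and 3 of each group in that order. The deposited table was reduced before deposit to genes that differed between these very livers, so counts of differing genes in it are descriptions and cannot be set against unselected genes. Of 21951 annotated protein-coding genes, 11.1% are in the table, and of the 258 annotated genes that fit the symbols, 18.6% are. A single read on a transcript of 1 kb was worth between 0.0374 and 0.0655 TPM, so the libraries differed less than 2-fold in the precision they give. Differences are log2 fold changes (log2FC ± standard error) of TPM + 0.1, Fgf18 △HSC minus Fgf18 f/f, from limma fitted over all 3201 genes. Genes were called where the Benjamini-Hochberg adjusted p was under 0.05 and the absolute log2 fold change above 1. The added 0.1 makes the fold change of genes near or under 0.1 TPM smaller than their ratio. P-values measure the spread between these livers alone, and an exact permutation test of 3 livers against 3 could not give a p below 0.1. Every listed gene had already been selected on these same livers. The p-values and their adjustment do not allow for that selection and are no independent evidence of a difference.

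Of the 48 genes, 38 were higher and 10 were lower in Fgf18 △HSC livers. limma called 25 of them higher and 9 lower, and 14 did not pass. Of all listed genes 71.7% were called, 41.6% higher and 30.0% lower. The 34 called members make 70.8%, close to that background, while the 25 called higher make 52.1%. In all 48 genes the 3 livers of one group lay on one side of the 3 livers of the other, as they did in 96.3% of all listed genes. The median log2 fold change was 1.06 over the members and 0.88 over all listed genes. When the livers were rescaled by the median ratio of the listed genes, the log2 fold changes of all listed genes shifted by a median of −0.88 and those of the members by −0.86. All listed genes had been selected as differing, and 2083 were higher and 1118 lower. The rescaling thus takes differing genes as its reference. Rescaled values show how far a difference depends on scale and are not corrected against unchanged genes. No member changed sign, but the share of called members that were higher went from 73.5% to 28.6%, with 4 called higher and 10 lower, and that of all called genes from 58.1% to 20.1%. After rescaling Gdf10 (1.38), Gdf3 (1.08), Gdf9 (1.07) and Wnt2 (1.07) were still called higher, and no other member was. All 4 were under 1 TPM in every liver, and the added 0.1 makes the shift smaller for genes near that level. Gdf3 went from 1.48 to 1.08, whereas the more abundant Pdgfrb went from 1.89 to 0.99 and Rspo3 from 1.88 to 0.94. Keeping the call thus does not rank these genes above the other higher members.

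**Figure D1:**
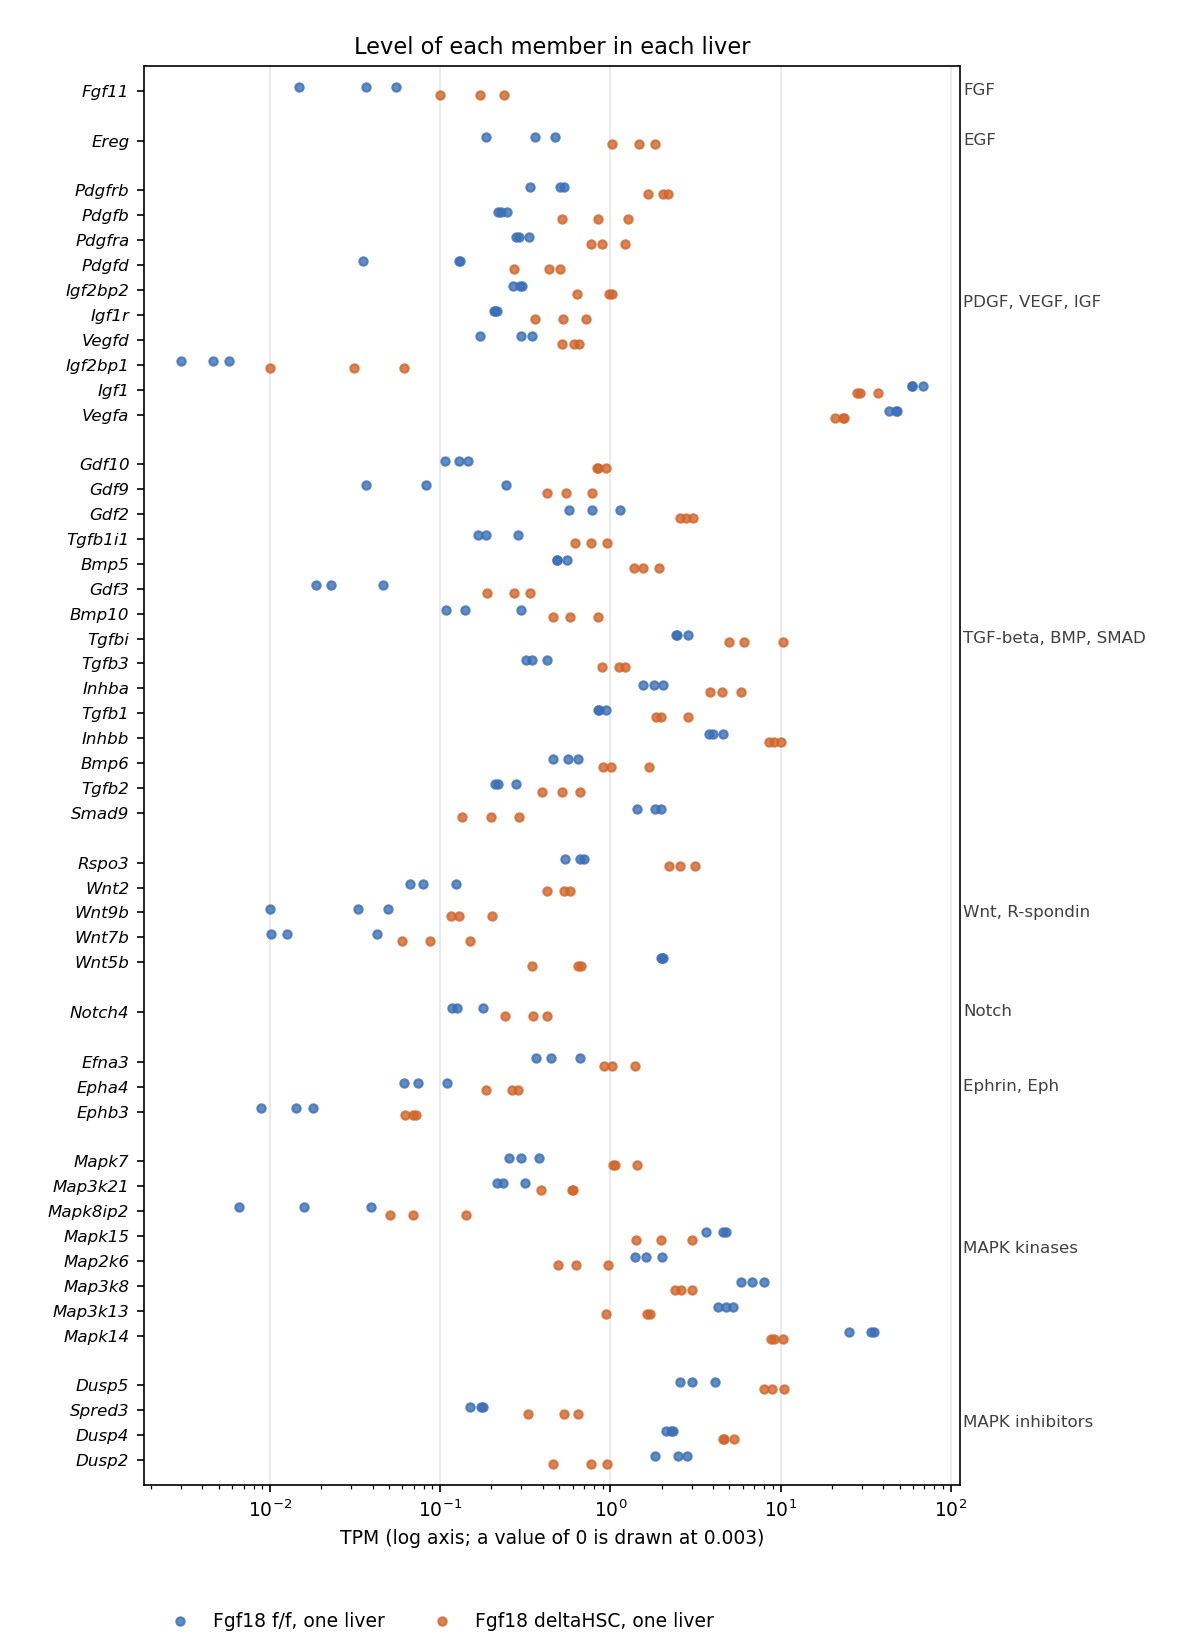
TPM of the 48 genes (vertical axis, grouped by role) in each liver on a log axis, with 3 Fgf18 f/f livers in blue and 3 Fgf18 △HSC livers (written deltaHSC) in orange. The colors do not overlap in any row, and the 10 genes with orange points to the left include the 3 most abundant ones, Igf1, Vegfa and Mapk14.

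Summed over the 38 higher genes, the control livers held 22.3, 22.0 and 23.3 TPM, against 62.3, 57.0 and 69.4 TPM in Fgf18 △HSC livers. Summed over the 10 lower genes they held 167, 163 and 162 TPM against 73.1, 73.3 and 69.4 TPM. The higher genes were thus mostly scarce transcripts and the lower genes held most of the summed TPM of the 48 listed members in the controls. Among members with a mean of at most 1 TPM, 28 of 29 were higher, against 86.0% of all listed genes at that level. Between 1 and 10 TPM 10 of 16 were higher, against 50.8%, and above 10 TPM none of 3, against 14.6%. The direction of the members thus followed their level in the same order as that of the whole table.

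**Figure D2:**
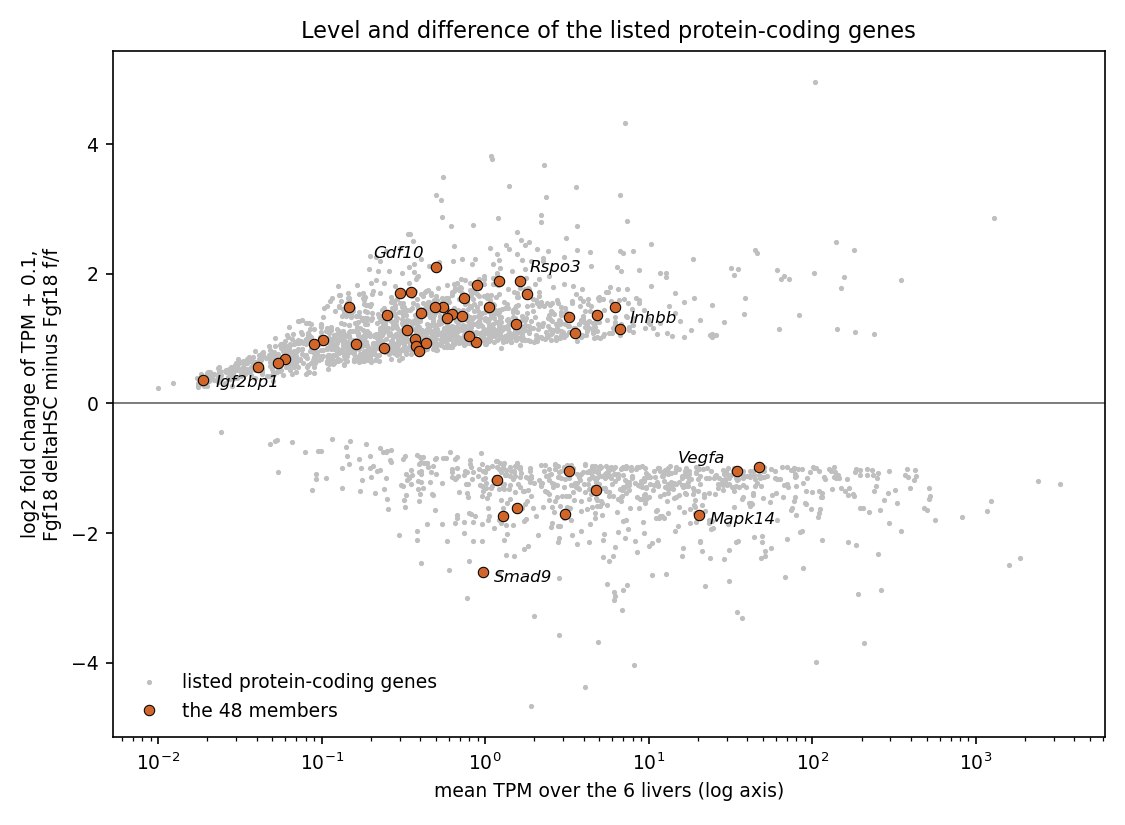
Mean TPM over the 6 livers (log axis) against the log2 fold change of TPM + 0.1 for the listed protein-coding genes (gray) and the 48 members (orange). Genes of low level lie mainly above 0, and Mapk14, Vegfa and Igf1, the 3 members above 10 TPM, lie below 0, in the same direction as most gray points of that level.

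The TGF-β, activin and BMP families formed the largest role group. Of its 15 genes, 12 were called higher and 1 was called lower. Of all listed genes 41.6% were called higher and 30.0% lower, which is the background for the counts of every role group and list below. All 12 listed ligands were higher, and the single listed SMAD was lower. The median log2FC of the group was 1.36 (0.47 after rescaling).

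Among the BMP and GDF ligands, 6 of 7 were called higher. Gdf2, also known as BMP9, a ligand made in the liver that signals to endothelial cells and lies at chr14:33941039-33947198 (GRCm38, like all positions here), was at 0.775, 0.571 and 1.13 TPM in Fgf18 f/f livers and at 2.57, 3.04 and 2.79 TPM in Fgf18 △HSC livers. It rose, with a log2FC of 1.69 ± 0.24 (limma adjusted p = 0.000328), or 0.73 after rescaling. The neighboring gene on the same strand, Gdf10 (chr14:33923587-33937983), also a BMP family ligand, rose from 0.129, 0.146 and 0.107 TPM to 0.944, 0.829 and 0.844 TPM, with a log2FC of 2.1 ± 0.19 (limma adjusted p = 5.55e-05). This was the largest of the 38 higher genes on that scale, and limma-voom on the recovered reads gave 2.73.

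Bmp5 (chr9:75775364-75900310) was at 0.483, 0.558 and 0.483 TPM in Fgf18 f/f livers and at 1.38, 1.92 and 1.56 TPM in Fgf18 △HSC livers. The difference was 1.49 ± 0.19 (limma adjusted p = 0.000217), or 0.57 after rescaling, but 46.7% of its exon length is covered by Gm26903, an antisense gene that the table also lists. The reads were aligned with their strand set, but the strand setting of the counting is not given in the sources used here, so reads of such pairs may not be separated. Bmp6, which endothelial cells secrete and which induces hepcidin in hepatocytes, was at 0.565, 0.460 and 0.641 TPM against 1.0, 0.906 and 1.68 TPM. With a log2FC of 0.95 (limma adjusted p = 0.00803) it did not pass the fold limit, and it did when Fgf18 f/f liver 3 (1.04), Fgf18 △HSC liver 1 (1.04) or Fgf18 △HSC liver 2 (1.11) was left out. Bmp10, Gdf3 and Gdf9 were called higher, with log2FCs of 1.40, 1.48 and 1.71. All 3 were under 1 TPM in every liver. Gdf3 had 3, 1 and 1 reads in the controls and 17, 10 and 9 reads with the deletion. The ratio per depth was 8.65 with an exact (Clopper-Pearson) 95% interval from 3.38 to 28.2 that covers counting error only. Depth here is the constant that turns reads into TPM in each library, so such ratios depend on scale as TPM does.

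The TGF-β and activin ligands were higher in all 5 cases and called in 4. Tgfb1, the main profibrotic cytokine of the injured liver (chr7:25687002-25705077), was at 0.852, 0.846 and 0.936 TPM in Fgf18 f/f livers and at 1.97, 1.84 and 2.86 TPM in Fgf18 △HSC livers. The log2FC was 1.22 ± 0.20 (limma adjusted p = 0.000721), or 0.26 after rescaling. Tgfb3 rose from 0.320, 0.425 and 0.345 TPM to 0.898, 1.22 and 1.12 TPM (log2FC 1.34, limma adjusted p = 0.000504, 0.47 after rescaling). The third isoform, Tgfb2, was at 0.219, 0.209 and 0.278 TPM against 0.516, 0.396 and 0.663 TPM, and its log2FC of 0.88 did not pass the fold limit. It passed without Fgf18 △HSC liver 2 (1.04), and limma-voom gave 1.16.

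Inhba and Inhbb encode the β subunits of activins and inhibins. Inhba (chr13:16011851-16031621) was at 1.56, 1.81 and 2.05 TPM in Fgf18 f/f livers and at 5.87, 4.50 and 3.84 TPM in Fgf18 △HSC livers, a log2FC of 1.33 ± 0.19 (limma adjusted p = 0.00038). Inhbb (chr1:119415465-119422248) was at 4.03, 4.59 and 3.77 TPM against 9.10, 8.55 and 9.99 TPM, a log2FC of 1.14 ± 0.13 (limma adjusted p = 0.000134). Inhbb was the most abundant ligand of the group. Both were higher in every Fgf18 △HSC liver than in any Fgf18 f/f liver, but the groups did not overlap in 96.3% of all listed genes. After rescaling their differences were 0.33 and 0.12.

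A pair of genes of the group encode proteins named for TGF-β that are not ligands. Tgfbi, an extracellular matrix protein induced by TGF-β, rose from 2.43, 2.46 and 2.86 TPM to 6.06, 4.96 and 10.3 TPM (log2FC 1.36 ± 0.25, limma adjusted p = 0.00134, 0.35 after rescaling). Tgfb1i1, a focal adhesion protein also known as Hic-5, was called higher (log2FC 1.49). Liver 3 was the highest Fgf18 △HSC liver for Tgfbi, and without it the difference was 1.06.

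Smad9 (chr3:54755582-54801257), also called SMAD8 and one of the receptor-regulated SMADs of the BMP branch, went the other way. It was at 1.98, 1.82 and 1.44 TPM in Fgf18 f/f livers but only at 0.198, 0.134 and 0.292 TPM in Fgf18 △HSC livers. The log2FC of −2.60 ± 0.25 (limma adjusted p = 6.21e-05) was the largest in size of all 48 genes and was −3.51 after rescaling. The lowest Fgf18 f/f liver was above the highest Fgf18 △HSC liver, with 139 reads in the former and 31 in the latter. The groups were likewise apart in 96.3% of all listed genes. Smad9 was called under every alternative that gave it a value, and the rescaling among them moves lower genes further from 0.

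The genes of the TGF-β and BMP pathway that carry other names were read from a list of 39, of which 15 are in the table. limma called 6 of them higher and 7 lower. Where either group averaged 1 TPM or more, the largest increases were in Ctgf, a matricellular protein induced by TGF-β and YAP, with 0.379, 0.612 and 0.737 TPM against 6.71, 6.06 and 6.94 TPM (log2FC 3.34), and in Fstl1, a secreted BMP-binding glycoprotein (1.65). Hamp, which encodes hepcidin, the iron-regulating hormone under BMP control, fell from 2812, 2329 and 2994 TPM to 359, 562 and 551 TPM (log2FC −2.49 ± 0.20, limma adjusted p = 2.97e-05). Named after their values were seen, Id3, a direct BMP target (−1.35), and the activin antagonist Fst (−1.6) fell. The other listed ID gene, Id4, went the other way with a log2FC of 0.89, and was not called (0.01 after rescaling). The receptor genes Acvr1b (−1.02) and Acvr2b (−1.25) fell as well, whereas Acvrl1, a receptor for BMP9 and BMP10 on endothelial cells, rose (1.5). Listed BMP ligands, Acvrl1 and Id4 were thus higher, while Smad9, Id3 and Hamp were lower, in the same livers.

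**Figure D3:**
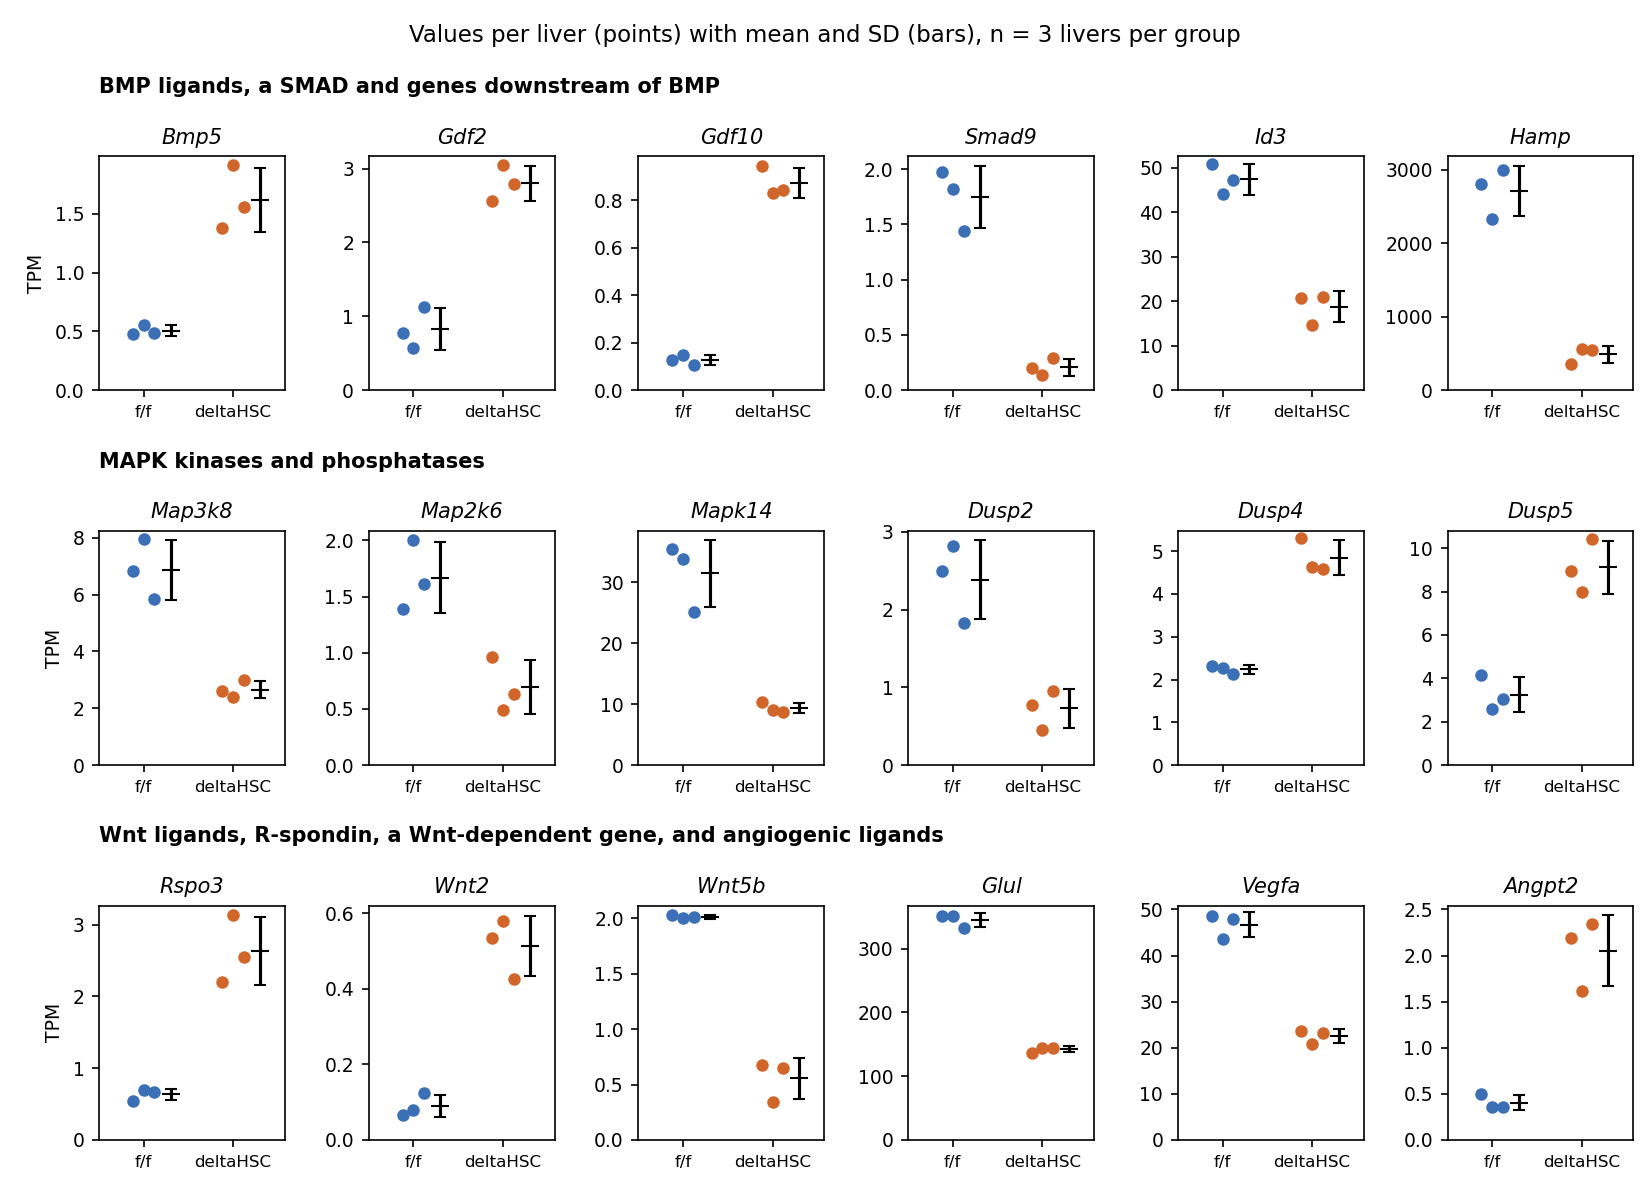
TPM per liver (points, 3 per group, linear axes from 0) with mean and SD (bars) for genes of the BMP, MAPK, Wnt and angiogenic pathways. In the top row Bmp5, Gdf2 and Gdf10 are higher and Smad9, Id3 and Hamp lower in Fgf18 △HSC livers (written deltaHSC). In the middle row Map3k8, Map2k6, Mapk14 and Dusp2 are lower and Dusp4 and Dusp5 higher, and in the bottom row Rspo3, Wnt2 and Angpt2 are higher and Wnt5b, Glul and Vegfa lower.

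Of the 10 PDGF, VEGF and IGF genes, 5 were called higher and 1 was called lower. The receptors and ligands of PDGF, which drives division and migration of stellate cells and other pericytes, were higher in all 4 cases and all 4 were called. Pdgfrb, the PDGF receptor β typical of stellate cells (chr18:61045150-61085061), was at 0.505, 0.336 and 0.537 TPM in Fgf18 f/f livers and at 2.04, 1.66 and 2.19 TPM in Fgf18 △HSC livers, a log2FC of 1.89 ± 0.22 (limma adjusted p = 0.000126), or 0.99 after rescaling. Pdgfra was at 0.279, 0.291 and 0.332 TPM against 1.22, 0.770 and 0.892 TPM, a log2FC of 1.38 ± 0.22 (limma adjusted p = 0.000638), or 0.53 after rescaling. The ligand gene Pdgfb, expressed by endothelial cells and platelets, was at 0.218, 0.246 and 0.228 TPM against 0.843, 0.516 and 1.26 TPM, a log2FC of 1.49 (limma adjusted p = 0.00184, 0.67 after rescaling), and Pdgfd was called higher (log2FC 1.36). The Fgf18 △HSC livers spread more widely than the Fgf18 f/f livers for Pdgfb, with SDs of 0.375 and 0.0144 TPM (n = 3 each).

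Vegfa and Igf1 are the most abundant genes of the whole set. Vegfa, the hypoxia-inducible angiogenic factor (chr17:46016993-46032369), was at 48.5, 43.6 and 48.0 TPM in Fgf18 f/f livers and at 23.6, 20.8 and 23.3 TPM in Fgf18 △HSC livers. It fell, with a log2FC of −1.05 ± 0.11 (limma adjusted p = 8.12e-05). Vegfa lies at the edge of the fold limit, and without Fgf18 △HSC liver 2 its −0.99 was not called. Igf1, the growth hormone-dependent hormone that hepatocytes release into the circulation (chr10:87858265-87937042), was at 59.2, 59.2 and 68.6 TPM against 29.2, 37.3 and 28.2 TPM. Its log2FC of −0.99 ± 0.14 (limma adjusted p = 0.000326) just missed the limit and passed it when Fgf18 f/f liver 1 (−1.02), Fgf18 f/f liver 2 (−1.02) or Fgf18 △HSC liver 2 (−1.11) was left out.

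The receptor and the other ligand of these families differed in the opposite direction from Vegfa and Igf1, at far lower levels. Igf1r was at 0.216, 0.208 and 0.208 TPM against 0.525, 0.363 and 0.716 TPM, with a log2FC of 0.99 that was not called. It passed without Fgf18 f/f liver 1 (1.003) or Fgf18 △HSC liver 2 (1.2). Vegfd, a ligand of lymphatic and blood vessel growth, had a log2FC of 0.93 and passed without Fgf18 f/f liver 3 (1.08) or Fgf18 △HSC liver 1 (1.01). The mRNA-binding protein gene Igf2bp2 was called higher (log2FC 1.31). Igf2bp1, a fetal mRNA-binding protein, had 0, 1 and 1 reads against 2, 9 and 6, and its log2FC of 0.36 had a limma adjusted p of 0.0665. Among the 41 members with whole recovered reads it was the only one under 10 reads in every liver, and the ratio per depth of 10.2 had an exact 95% interval from 2.42 to 91.1.

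Other receptor tyrosine kinase genes and their ligands were read from a list of 24, with 9 in the table, 6 called higher and 1 called lower. Angpt2, an endothelial ligand that opposes Tie2 signaling, rose from 0.496, 0.353 and 0.361 TPM to 2.19, 1.61 and 2.34 TPM (log2FC 2.09, 1.19 after rescaling), and its receptor gene Tek rose (log2FC 1.31, 0.42 after rescaling). Fgfrl1, an FGF receptor without a kinase domain, fell, from 8.36 TPM and more in the controls to 4.01 TPM and less with the deletion (log2FC −1.43). Named after its value was seen, Klb, the hepatocyte coreceptor for FGF21 and FGF15, was at 9.53 ± 0.618 TPM against 4.76 ± 0.698 TPM (SD, n = 3 each) and was not called (log2FC −0.99).

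The 5 Wnt genes held 2 called higher and 1 called lower. Rspo3, the R-spondin that sustains Wnt signaling around the central vein (chr10:29452416-29535867), was at 0.544, 0.697 and 0.665 TPM in Fgf18 f/f livers and at 2.20, 3.13 and 2.55 TPM in Fgf18 △HSC livers, a log2FC of 1.88 ± 0.19 (limma adjusted p = 7.82e-05), or 0.94 after rescaling. An antisense gene in the table, Gm48159, covers 13.1% of its exon length. Wnt2, an angiocrine Wnt of central vein and sinusoidal endothelium, rose from 0.0663, 0.0796 and 0.123 TPM to 0.534, 0.581 and 0.426 TPM, a log2FC of 1.70 ± 0.21 (limma adjusted p = 0.0002). It rested on 4, 4 and 5 reads in the controls and 25, 20 and 19 reads with the deletion.

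Wnt9b, expressed by the endothelium of the central vein, was at 0.0331, 0.00993 and 0.0492 TPM against 0.128, 0.116 and 0.201 TPM. Its log2FC of 0.92 (limma adjusted p = 0.00291) did not pass the fold limit, and did without Fgf18 f/f liver 3 (1.02) or Fgf18 △HSC liver 2 (1.02). limma-voom on the recovered reads gave 2.30. Wnt7b, a Wnt ligand of epithelia, was at or under 0.149 TPM in every liver, and its log2FC of 0.69 was not called. Rspo3, Wnt2 and Wnt9b were each higher in every Fgf18 △HSC liver than in any Fgf18 f/f liver. The groups did not overlap in 96.3% of all listed genes, so this is not particular to them.

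Wnt5b, a noncanonical Wnt ligand (chr6:119432531-119544347), fell. The Fgf18 f/f livers were almost equal at 2.03, 2.0 and 2.01 TPM, and the Fgf18 △HSC livers were at 0.672, 0.345 and 0.647 TPM. The log2FC was −1.73 ± 0.24 (limma adjusted p = 0.000322), or −2.69 after rescaling. In a list of 34 further Wnt pathway genes, 5 are in the table, with 2 called higher and 1 called lower. Tcf7, a Wnt-responsive transcription factor, rose from 1.38, 0.958 and 0.867 TPM to 2.20, 2.07 and 2.64 TPM (log2FC 1.06, 0.09 after rescaling). Named after its value was seen, Frzb, a secreted Wnt antagonist, rose from 0.115, 0.0971 and 0.0858 TPM to 0.506, 0.647 and 0.828 TPM (log2FC 1.91, 1.24 after rescaling). Nkd2, an inhibitor of Dishevelled, had a log2FC of 0.83 and was not called. Glul, the glutamine synthetase of pericentral hepatocytes and a target of β-catenin, fell from 351, 352 and 332 TPM to 137, 145 and 144 TPM (log2FC −1.28 ± 0.10, limma adjusted p = 2.4e-05). In these livers Glul was thus lower while Rspo3 and Wnt2, and also the antagonist Frzb, were higher.

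Notch4, an endothelial Notch receptor, was the single Notch or Jagged gene listed. It was at 0.125, 0.117 and 0.179 TPM against 0.239, 0.349 and 0.426 TPM, and its log2FC of 0.85 (limma adjusted p = 0.00804) did not pass the fold limit. It passed without Fgf18 △HSC liver 1 (1.03), and limma-voom on the recovered reads gave 1.26. Of 24 other Notch pathway genes 5 are in the table, with 2 called higher and none lower. Hes1, the transcriptional repressor induced by Notch, rose from 1.83, 2.38 and 2.45 TPM to 6.27, 3.82 and 7.17 TPM (log2FC 1.30, 0.29 after rescaling). Maml2, a coactivator of Notch and not called, had a log2FC of 0.74 that turned to −0.01 after rescaling.

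The 3 ephrin and Eph genes, which mediate contact signaling between neighboring cells, were higher, and 1 was called. Efna3, a membrane-anchored ligand (chr3:89313899-89322965), was at 0.445, 0.664 and 0.365 TPM in Fgf18 f/f livers and at 1.39, 1.02 and 0.914 TPM in Fgf18 △HSC livers, a log2FC of 1.04 ± 0.25 (limma adjusted p = 0.00477), or 0.14 after rescaling. The call did not hold without Fgf18 f/f liver 1 (0.999), Fgf18 f/f liver 3 (0.88) or Fgf18 △HSC liver 1 (0.88). The antisense gene Gm15998 covers 14.1% of its exon length. The receptor genes Epha4 and Ephb3 had log2FCs of 0.92 and 0.56 and were not called. Epha4 passed without Fgf18 f/f liver 3 (1.03) or Fgf18 △HSC liver 1 (1.05).

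Of the FGF ligands and of the EGF family, 1 gene each is listed. Ereg, the EGF receptor ligand epiregulin (chr5:91074622-91093646), rose from 0.362, 0.185 and 0.471 TPM to 1.47, 1.01 and 1.84 TPM, a log2FC of 1.83 ± 0.32 (limma adjusted p = 0.000932), or 0.97 after rescaling. Fgf11, an intracellular FGF that does not act through FGF receptors, had 3, 1 and 3 reads in the controls and 15, 8 and 6 reads with the deletion. The ratio per depth was 4.98 with an exact 95% interval from 2.13 to 13.5. Its log2FC of 0.97 was not called, and passed the limit without Fgf18 f/f liver 3 (1.07) or Fgf18 △HSC liver 3 (1.17).

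The kinases of the MAPK cascades were the only role group with more members lower than higher. Of 8 genes, 5 were called lower and 1 was called higher, with a median log2FC of −1.11 (−2.1 after rescaling).

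The 2 listed kinases of the p38 branch were lower in mRNA, and kinase activity was not measured in these data. Mapk14, the kinase p38α that stress and inflammatory cytokines activate (chr17:28691329-28748406), was at 35.4, 33.8 and 25.1 TPM in Fgf18 f/f livers and at 10.3, 9.11 and 8.77 TPM in Fgf18 △HSC livers. It fell, with a log2FC of −1.72 ± 0.15 (limma adjusted p = 5.11e-05), or −2.75 after rescaling. Map2k6, the p38-activating kinase MKK6 (chr11:110399122-110525522), was at 1.39, 2.01 and 1.61 TPM against 0.966, 0.494 and 0.631 TPM, a log2FC of −1.18 ± 0.26 (limma adjusted p = 0.00276), and without Fgf18 △HSC liver 2 it was −0.99 and not called. Mapk14 was called in every alternative that gave it a value, with a range from −1.87 to −1.62 when a liver was left out.

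Promoter windows of 300 bases, 250 before and 50 after the start of transcription in RefSeq on GRCm38.p6, were found for 35 of the 48 members. They were searched on both strands for the antioxidant response element TGACNNNGC, to which Nrf2 binds, for AP-1 (TGANTCA), CRE (TGACGTCA), the E-box CACGTG, the TCF/LEF motif CTTTGAT and the SRF CArG box. The windows of Map2k6 and Mapk14 are shown because both listed kinases of the p38 branch fell in mRNA and both windows hold the antioxidant response element. It is in capitals, with the same 9 letters on the strand opposite to the motif as spelled.
Map2k6, chr11:110398852-110399151, + strand: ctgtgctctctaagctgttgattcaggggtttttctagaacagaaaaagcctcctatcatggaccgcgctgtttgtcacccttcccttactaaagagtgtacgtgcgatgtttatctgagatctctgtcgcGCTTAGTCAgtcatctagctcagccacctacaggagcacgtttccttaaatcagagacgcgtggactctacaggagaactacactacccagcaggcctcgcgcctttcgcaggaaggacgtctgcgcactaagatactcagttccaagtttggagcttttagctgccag
Mapk14, chr17:28692318-28692617, + strand: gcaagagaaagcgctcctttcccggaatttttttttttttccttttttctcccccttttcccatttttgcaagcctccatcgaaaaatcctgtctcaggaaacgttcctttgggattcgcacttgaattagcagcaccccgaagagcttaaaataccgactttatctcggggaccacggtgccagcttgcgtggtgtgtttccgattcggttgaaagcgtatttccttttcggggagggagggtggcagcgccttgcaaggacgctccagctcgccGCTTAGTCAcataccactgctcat
The match begins 119 bases before the start in Map2k6 and after the start in Mapk14, for which this is 1 of 2 windows. The Map2k6 window also holds an AP-1 match, which does not overlap the capitals. Over all members, the windows of Bmp6, Dusp5, Map2k6, Mapk14, Pdgfd and Wnt5b held the element. That was 16.3% of 43 windows, against 12.4% of all 32851 windows in the table. It was in 3 of the 8 lower genes with a window and in 3 of the 27 higher ones. AP-1 was in 9.30% of members' windows against 7.81% of all, in 3 of the 8 lower genes and 1 of the 27 higher ones. These splits rest on few genes and were not tested. The E-box was in 6.98% of members' windows against 7.15% of all, TCF/LEF in 2.33% against 3.73%, and CRE in none against 1.79%. These are matches of letters and not measured binding.

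The listed MAP3 kinases were lower in 2 of 3 cases, and both were called. Map3k13, the kinase LZK upstream of JNK (chr16:21794346-21933439), was at 4.79, 5.22 and 4.28 TPM in Fgf18 f/f livers and at 1.70, 0.937 and 1.63 TPM in Fgf18 △HSC livers, a log2FC of −1.71 ± 0.23 (limma adjusted p = 0.000272). Map3k8, the kinase TPL2 that links inflammatory receptors to ERK (chr18:4331327-4353015), was at 6.82, 7.96 and 5.84 TPM against 2.60, 2.38 and 3.0 TPM, a log2FC of −1.33 ± 0.16 (limma adjusted p = 0.000162). Together with Mapk14 and Smad9 these were the 4 members called under every alternative that gave a value. All 4 were lower genes, which the rescaling could only move further from 0. Map3k21, a mixed-lineage kinase, had a log2FC of 0.82 and was not called, and after rescaling its difference was 0.01, the smallest of the higher genes.

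Mapk7, the kinase ERK5 (chr11:61488812-61494406), was the single kinase called higher. It was at 0.255, 0.296 and 0.379 TPM in Fgf18 f/f livers and at 1.03, 1.06 and 1.43 TPM in Fgf18 △HSC livers, with a log2FC of 1.63 ± 0.22 (limma adjusted p = 0.000275), or 0.77 after rescaling. Mapk15, the atypical kinase ERK8 (−1.05), was called lower, but not without Fgf18 f/f liver 1 (−0.97) or Fgf18 △HSC liver 2 (−0.80). The JNK scaffold gene Mapk8ip2, at or under 0.142 TPM in every liver, had a log2FC of 0.62 and was not called.

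All 4 MAPK inhibitors were called, 3 higher and 1 lower. The 3 dual-specificity phosphatases are nuclear enzymes induced by MAPK signals that remove phosphate from MAP kinases. Dusp5, specific for ERK (chr19:53529109-53542431), rose from 4.14, 2.58 and 3.03 TPM to 8.95, 7.99 and 10.4 TPM, with a log2FC of 1.48 ± 0.19 (limma adjusted p = 0.000237), or 0.47 after rescaling. Dusp4 (chr8:34807297-34819894) rose from 2.32, 2.26 and 2.13 TPM to 5.31, 4.63 and 4.57 TPM, with a log2FC of 1.08 ± 0.13 (limma adjusted p = 0.000181), or 0.08 after rescaling. Dusp2 (chr2:127336159-127338376) fell from 2.5, 2.82 and 1.83 TPM to 0.770, 0.457 and 0.959 TPM, with a log2FC of −1.61 ± 0.28 (limma adjusted p = 0.000879). The phosphatases thus differed in direction among themselves. Spred3, a Sprouty-related inhibitor of RAS-ERK signaling, was called higher (log2FC 1.13), but not without Fgf18 △HSC liver 3 (0.96).

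The window of Dusp5 is shown because it was the only one among the members with the CArG box bound by serum response factor, the factor through which ERK signals reach many immediate-early genes. A pair of adjacent matches, 82 and 72 bases before the start, is in capitals.
Dusp5, chr19:53528895-53529194, + strand: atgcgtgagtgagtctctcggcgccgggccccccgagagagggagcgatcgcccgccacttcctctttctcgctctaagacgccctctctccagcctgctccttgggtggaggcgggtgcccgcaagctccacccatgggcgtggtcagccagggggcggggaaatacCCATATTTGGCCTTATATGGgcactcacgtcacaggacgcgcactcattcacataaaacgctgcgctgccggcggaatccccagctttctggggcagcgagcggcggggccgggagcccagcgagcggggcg
The CArG box was in 1.63% of all windows in the table. For Dusp5 the antisense gene AC137853.2 covers 22.1% of the exon length.

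In a list of 42 genes of the RAS-ERK pathway and its immediate-early targets, 10 are in the table, with 5 called higher and 4 lower. Fosl1, the AP-1 subunit FRA1, rose from 2.47, 2.60 and 2.54 TPM to 11.9, 11.8 and 16.6 TPM (log2FC 2.34, 1.33 after rescaling), and Egr2 rose (log2FC 1.53, 0.61 after rescaling). Fosb fell from 12.6, 10.7 and 6.05 TPM to 1.68, 0.797 and 1.51 TPM (−2.78), and Myc from 39.3, 36.4 and 35.5 TPM to 17.5, 11.5 and 18.7 TPM (−1.25). The immediate-early genes of the table thus went both ways. Klf4, not called at 0.94, turned to −0.02 after rescaling.

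**Figure D4:**
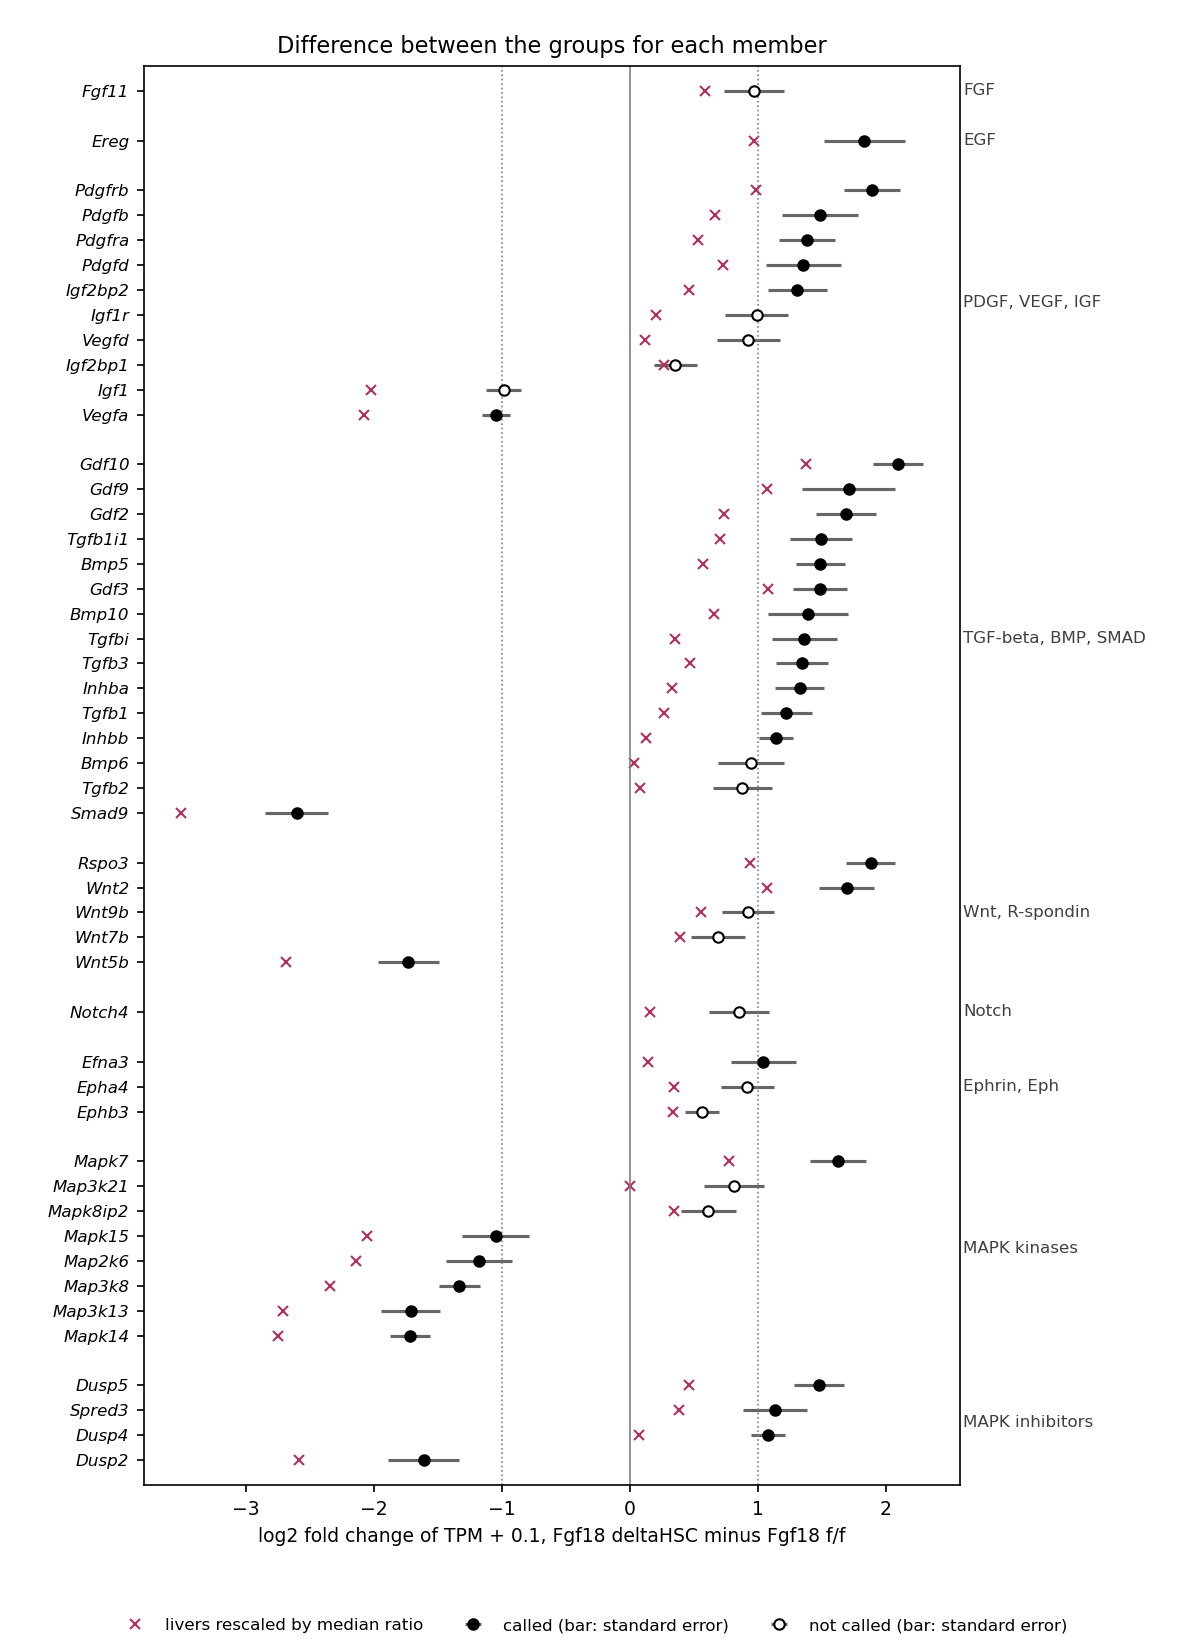
Log2 fold change of TPM + 0.1 between Fgf18 △HSC (written deltaHSC) and Fgf18 f/f livers for each of the 48 genes, grouped by role, with standard error bars, filled points for called genes, dotted lines at the fold limit and crosses for livers rescaled by the median ratio. In the TGF-β and BMP group Smad9 stands alone at −2.60, and the MAPK kinases hold 5 of the 9 genes called lower. No cross lies on the other side of 0 from its point.

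Because whole livers were sequenced, fewer cells of a type and less RNA per cell cannot be told apart. Marker genes of the cells a liver can hold were read from lists of textbook markers. The markers found had been selected as differing, like all listed genes. Of all listed genes 71.7% were called, and 86.0% of those with a mean of at most 1 TPM were higher. Of 12 HSC markers 8 are in the table, and all 8 were higher, 6 of them called. Their summed level ranged from 7.13 to 9.14 TPM in Fgf18 f/f livers and from 19.6 to 30.0 TPM in Fgf18 △HSC livers, and Pdgfrb is one of them. Much of that sum was Ecm1, with means of 4.91 TPM in Fgf18 f/f and 13.7 TPM in Fgf18 △HSC livers. After rescaling the log2FCs of the 8 markers ranged from 0.08 (Reln) to 1.03 (Hand2). All 3 listed of 8 sinusoidal endothelial markers (Lyve1, Gpr182 and Pecam1) were called higher, with sums of 11.9 to 14.4 TPM against 26.5 to 38.8 TPM. Most of that sum was Lyve1, whose log2FC of 1.13 was 0.10 after rescaling. Gpr182 was at 0.77 and Pecam1 at 0.82 after rescaling. For Kupffer cells and macrophages 2 of 8 are listed, with sums of 4.19 to 5.45 TPM against 14.0 to 19.5 TPM. Cd68 rose (0.78 after rescaling), while Adgre1 was not called and changed sign after rescaling. For neutrophils 2 of 8 are listed, both called higher, with sums of 6.16 to 7.69 TPM against 9.80 to 27.1 TPM. Their log2FCs were 0.08 (Csf3r) and 0.27 (Cxcr2) after rescaling. Of 6 cholangiocyte markers 5 are listed, with 2 called higher and 1 lower and sums of 28.1 to 30.5 TPM against 50.2 to 76.8 TPM. The rise of that sum lay mainly in Spp1, with means of 13.3 TPM in Fgf18 f/f and 53.0 TPM in Fgf18 △HSC livers. Sox9 was the marker called lower, with means of 14.6 and 7.04 TPM, so these markers did not share a direction. All 4 globin genes, markers of red cells, were called higher, with sums of 70.9 to 116 TPM against 396 to 539 TPM. After rescaling their log2FCs ranged from 1.06 to 1.33. None of the 7 hepatocyte, 7 lymphocyte and 4 glial markers is in the table, so the labelled tissue was not checked against hepatocyte markers. Each of these marker sums was higher in every Fgf18 △HSC liver than in any Fgf18 f/f liver. Several of the members that were higher are known products of stellate and endothelial cells. Sums and members share this direction between the groups, and they were not compared liver by liver. The part of cell amounts in the differences of the members was not tested.

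The members are spread over the genome, with few neighbors. Besides Gdf10 and Gdf2, Ephb3 (chr16:21204755-21223305), Map3k13 and Igf2bp2 (chr16:22059009-22163299) lie close together on chromosome 16, and Map3k13 fell there while Igf2bp2 rose. For 41 members the recovered reads were whole numbers in every liver, and the lowest liver of a member had a median of 23 reads. In 15 of them every Fgf18 f/f liver had under 30 reads, so their differences rest on few counts in the control livers.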

How the data were processed

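Per the labels and the submitters' processing notes, total RNA of whole liver was isolated with TRIzol, stranded mRNA libraries were prepared, and the authors trimmed reads with cutadapt 2.5, aligned them to mm10 (GRCm38) with HISAT2 2.1.0 and counted them with featureCounts 1.6.3. The alignment was set to reverse-stranded libraries, and the strand setting of featureCounts is not given in the sources used here. The authors deposited 1 table with a value per gene and liver, for which no unit is named. The deposited values were taken as TPM, because value times joined exon length (GENCODE release 21, GRCm38) gave whole reads within 0.02 reads for 92.2% to 92.6% of values, with 1 constant per library that is not a whole number. Library totals are not known, so these constants stood in for depth in the ratios per depth and for library size in limma-voom. Intervals cover counting error only. The table also holds the authors' log2 fold change, p-values and direction, which were not used except to see that all 3201 genes had passed a p limit of 0.05 and a fold limit of 1 on the log2 scale.

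Livers were grouped by title and compared with limma 3.58.1 (lmFit, eBayes with a mean-variance trend) in R 4.3.3 on log2(TPM + 0.1) over all 3201 genes, without a filter or a block. No 2 livers held identical values. Tables and figures were made in Python 3.11.15 (pandas 2.3.3, scipy 1.17.1, matplotlib 3.10.9), and the fit was tested on simulated data. Gene positions came from GENCODE and promoter sequences from RefSeq.

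The members, role groups and gene lists were chosen with earlier results of these data known, and no pattern here is independent of them. Values per liver were given for up to 3 called genes per role group and direction whose livers did not overlap between groups and which averaged 1 TPM or more in one of them, for a list of genes of known liver or pathway role, and for up to 2 called genes per other list and direction. Values of Gdf10, Map2k6, Igf1r, Notch4, Klb, Frzb, Nkd2, Id3, Id4, Fst, Acvr1b, Acvr2b, Acvrl1, Ecm1, Spp1 and Sox9, and the read counts of Gdf3, Fgf11 and Igf2bp1, are outside that rule and were chosen after the values were seen. The same holds for the rescaled differences of single cell type markers. Some genes that the rule would name are not reported here. Alternatives were pseudocounts of 1 and 0.01, a mean of at least 1 TPM, median-ratio rescaling, no trend, protein-coding genes alone, no fold limit, limma-voom on recovered reads, a replicate block, and each liver left out.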

Additional observations from a re-analysis of the deposited data

How the results depend on the processing

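No member changed direction under any of the alternatives. Over all members and alternatives, 576 of 684 values kept their side of the threshold, 52 lost the call and 56 gained it. The number of members called higher, 25, was 6 with a pseudocount of 1, 38 with a pseudocount of 0.01, 10 with a mean of at least 1 TPM, where 19 members were fitted, and 4 after rescaling by the median ratio. The number called lower, 9, was 5 with a pseudocount of 1. Over all listed genes 2294 were called, 832 with a pseudocount of 1, 1309 with a mean of at least 1 TPM and 1396 after rescaling. A larger pseudocount shrinks the fold changes of low genes by construction, and 29 of the 48 members had a mean of at most 1 TPM. The rescaling factors were computed from the listed genes alone, all of which had been selected as differing. Without a fold limit 37 members were called higher and 10 lower, and limma-voom, which could be fitted to the 41 members with whole reads, called 34 higher and 6 lower. With 1 liver left out, 25 to 29 members were called higher, 7 to 10 lower, and 2120 to 2330 of all genes. Map3k13, Map3k8, Mapk14 and Smad9 were called under every alternative that gave a value. All 4 were lower genes. The rescaling, with its median shift of −0.88, moves lower genes further from 0 and takes calls from higher genes. The count of alternatives thus cannot rank lower against higher members.

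Livers of both groups are numbered 1 to 3, but the numbers belong to different mice. The deviations of same-numbered livers from their group means correlated across genes with r = 0.057, 0.0060 and 0.031, so the livers share only a number. With the replicate number as a block, 25 members were called higher, 9 lower and 2300 genes in all, and no member's call changed. Depth limits the scarcest members, and 15 of the 41 with whole reads had under 30 reads in every Fgf18 f/f liver.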
